A study of Mus musculus with 9 samples.

Results

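The genes described here encode cell-surface antigens, proteins on the outside of the cell that an antibody can bind and that are used or proposed for sorting living cells. They were taken from a list of 55 gene symbols, of which 52 were measured by 139 probe sets annotated to that symbol alone, among 18193 genes and 45037 probe sets on the array that are not controls. Cd38, Cd63 and Ly6a were not analysed here. RNA was measured on 9 Affymetrix arrays, 3 for each of 3 groups of mouse retinal cells that a flow sorter had separated by their GFP. The rhoGFP-positive and rhoGFP-negative groups are the GFP-bright and GFP-dark cells of retinae of rhoEGFP mice at postnatal day 4 (P4), a line in which GFP reports rod photoreceptors. The nestinGFP-positive group holds the GFP-bright cells of pNestin-GFP retinae at postnatal day 0 (P0), a line in which GFP reports the intermediate filament gene nestin, expressed in neural progenitors. All 3 groups are of the C57BL/6J-129/Ola background, and each biological replicate pooled retinae of 6 to 8 mice, so that differences between single animals are not seen. The rhoGFP-negative group is a mixture of whatever retinal cells lacked GFP, and nestinGFP-negative cells were not analysed here. The nestinGFP-positive group differs from the others in age and in reporter line, so that age, line and cell population cannot be told apart in any comparison with it.

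A sorting antigen can serve for positive selection, where cells that carry it are collected, or for negative selection, where they are removed. Photoreceptor precursors are commonly enriched with antibodies to the ectonucleotidase CD73 or the pentaspan protein CD133, and neural progenitors are sorted for growth factor receptors, integrins and tetraspanins. The antigens listed fall into families with different work: receptors for soluble factors, adhesion molecules that bind neighbouring cells, integrins that bind the extracellular matrix, tetraspanins that organise membrane domains, small proteins held by a glycosylphosphatidylinositol (GPI) anchor, regulators of complement and phagocytosis, and antigens of immune and vascular cells. Transcript level and protein at the surface are different measures, and only the first was measured here.

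The sorted fractions were checked with markers that are not on the antigen list. Of 9 measured rod markers, 9 were higher in the rhoGFP-positive cells than in either other group, and of 9 measured progenitor markers 9 were lower. The median of the progenitor markers ran from 7.68 to 8.83 (log2) on the rhoGFP-positive arrays, from 9.98 to 11.28 on the rhoGFP-negative and from 11.33 to 11.44 on the nestinGFP-positive arrays. Müller glia markers were lower in 5 of 7 and ganglion and amacrine markers in 4 of 9 in rhoGFP-positive against rhoGFP-negative cells. Against the nestinGFP-positive cells 5 of 7 and 6 of 9 were lower. Over all genes, 3.61% and 5.06% were called higher and 7.32% and 10.5% lower in these 2 comparisons. Markers of erythrocytes (3 measured), pigment epithelium (6) and fibroblasts (5) had no called member in any comparison, with at most 1 gene of each list at an unadjusted p below 0.05. Of 11 microglia and macrophage markers, 1 was called higher in rhoGFP-positive than in nestinGFP-positive cells and 0 in the other comparisons. In the former, 7 of the 11 had an unadjusted p below 0.05, beside 8162 of all 18193 genes. Nes itself stood at a mean of 8.60 in both the rhoGFP-negative and the nestinGFP-positive cells and at 8.04 in the rhoGFP-positive cells, and was not called. The rod factors Nrl and Crx differed by 1.06 ± 0.27 and 0.71 ± 0.29 (SE) between the rhoGFP fractions and by 2.54 ± 0.27 and 2.07 ± 0.29 from the nestinGFP-positive cells (limma adjusted p = 0.0185, 0.11, 7.34e-05 and 0.00036), and Crx was not called in the former comparison. Nrl was bright in every group, at means of 13.65 (rhoGFP-positive), 12.58 (rhoGFP-negative) and 11.11 (nestinGFP-positive). The rhoGFP-negative cells were thus not free of rod transcripts. The median of the rod markers ran from 10.93 to 11.93, from 6.38 to 7.72 and from 6.31 to 7.58 on the arrays of these groups. The 18S ribosomal control probe sets averaged 12.1 to 13.6 on the 3 replicate 1 arrays and 9.65 to 10.4 on the 6 others, and values without those 3 arrays are given where a call changes.

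Between the 2 rhoGFP fractions limma called 2 antigen genes higher and 12 lower in the rhoGFP-positive cells, at an adjusted p below 0.05 and a difference of at least 1 log2 unit. These are 3.85% and 23.1% of the 52 measured genes, where 3.61% and 7.32% of all genes tested were called higher and lower. The antigen list was chosen with earlier results of these data known. Its shares here and below therefore describe the list and are no test against all genes. Against the nestinGFP-positive cells, 2 were called higher and 15 lower (3.85% and 28.8% of the antigen genes, beside 5.06% and 10.5% of all genes). The median difference of the 52 genes was -0.11 and -0.19 log2 units in these comparisons, against 0.01 and 0.06 over all genes. Between the rhoGFP-negative and nestinGFP-positive cells 0 antigen genes were called higher and 1 lower, beside 0.385% and 0.605% of all genes. At an unadjusted p below 0.05, 3 were higher and 8 lower. These are 11 of the 52 antigen genes, beside 3285 of all 18193 genes at that threshold. All comparisons share arrays and are therefore not independent of each other, and their p-values measure the spread between these pools. Called either way were 10.9%, 15.6% and 0.989% of all genes in the 3 comparisons. The arrays of the 2 groups compared did not overlap for 28, 28 and 9 of the 52 genes, beside 38.2%, 47.8% and 20.6% of all genes.

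**Figure D1:**
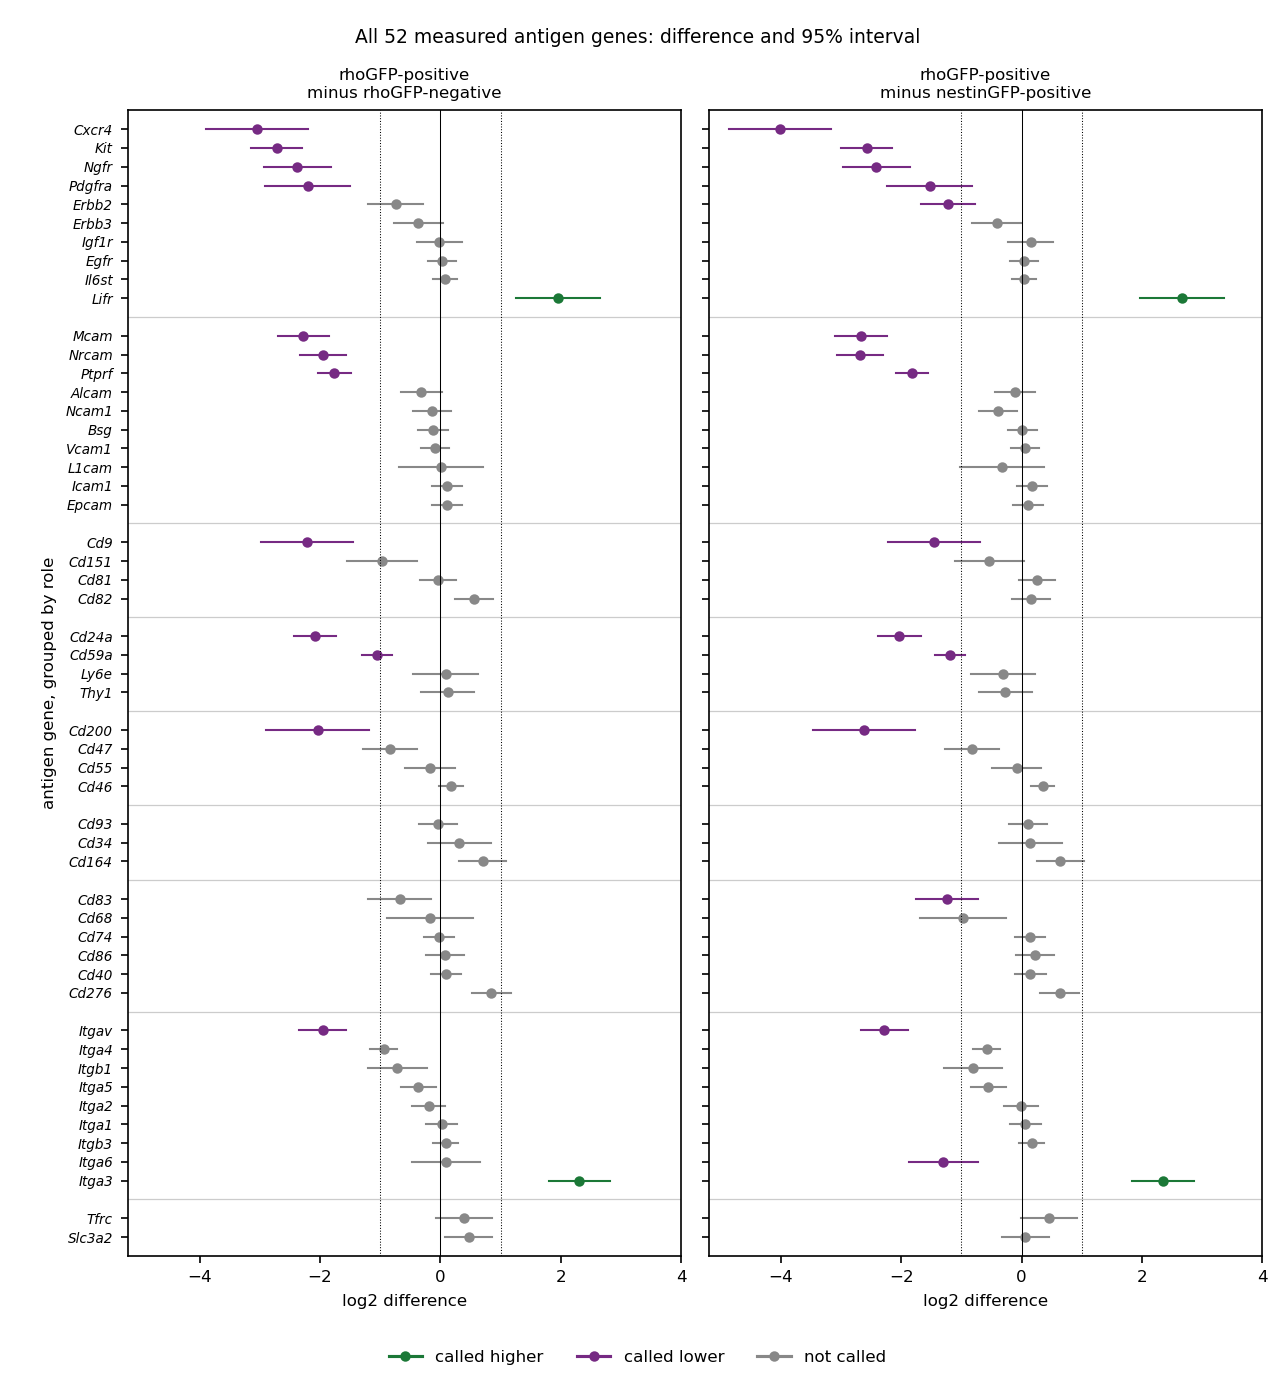
Log2 difference (point) and unadjusted 95% interval (line) of each of the 52 measured antigen genes, grouped by role, for the rhoGFP-positive cells against the rhoGFP-negative (left) and the nestinGFP-positive cells (right), 3 arrays a group; dotted lines mark 1 log2 unit. Points called lower (12 left, 15 right) lie in every family except the sialomucins and C-type lectin antigens, the transport receptors and, in the left panel, the leukocyte antigens, and the 2 called higher are Lifr and Itga3.

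A gene was counted as a sorting candidate of a group when it was called in the same direction against both other groups, and candidates were ordered by the smaller of their 2 differences. For the rhoGFP-positive cells this gave 2 positive candidates, Itga3 and Lifr, beside 3.22% of all genes, and 12 negative candidates, beside 6.65% of all genes. The negative candidates were, in order, Cxcr4, Kit, Ngfr, Mcam, Cd200, Cd24a, Itgav, Nrcam, Ptprf, Pdgfra, Cd9 and Cd59a. For the nestinGFP-positive cells the only positive candidate was Itga6 (0.561% of all genes), and limma found 0 negative candidates (0.28% of all genes; 1 antigen gene, Lifr, at unadjusted p below 0.05). The rhoGFP-negative cells had 0 candidates in either direction, beside 0.066% and 0.0385% of all genes; at an unadjusted p below 0.05 against both other groups, Itga4 was higher and Cd82 and Slc3a2 lower in them. Because RNA of sorted populations was measured in bulk, fewer cells of a type and less RNA per cell cannot be told apart. Where a pair of differences is given below, it is the rhoGFP-positive minus the rhoGFP-negative and then minus the nestinGFP-positive mean, in log2 units, on the brightest probe set unless another is named.

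**Figure D2:**
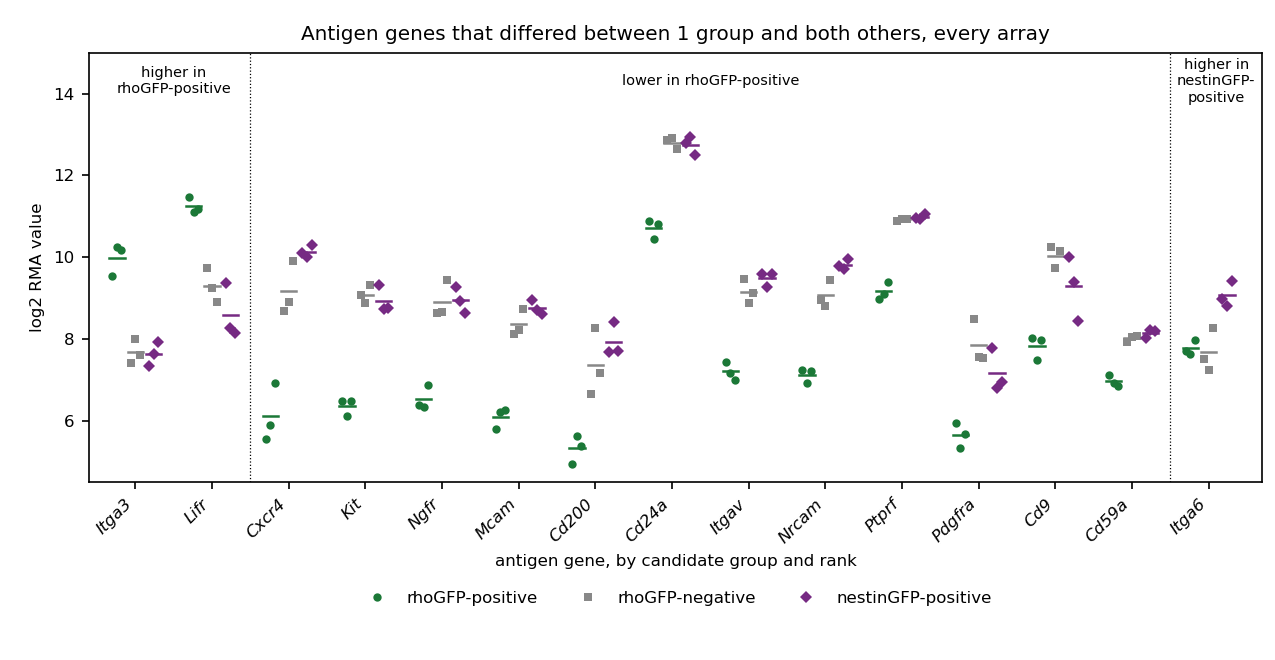
Log2 RMA value on each of the 9 arrays (points) and group mean (bar) for the 15 candidate genes, by group. The rhoGFP-positive points lie above all others for Itga3 and Lifr and below all others for the 12 genes from Cxcr4 to Cd59a, while the nestinGFP-positive points lie above all others for Itga6.

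The strongest positive candidate of the rhoGFP-positive cells was Itga3, the integrin alpha3 chain, which pairs with beta1 to bind laminins. Its brightest probe set stood at 9.54, 10.24 and 10.17 in the rhoGFP-positive, at 7.40, 8.00 and 7.61 in the rhoGFP-negative and at 7.34, 7.62 and 7.92 in the nestinGFP-positive samples. The lowest rhoGFP-positive array lay 1.54 above the highest of the others, and the group means differed by 2.31 ± 0.23 log2 units (SE) from the rhoGFP-negative (limma adjusted p = 6.73e-05) and by 2.35 ± 0.23 from the nestinGFP-positive cells (3.68e-05), a 4.96-fold and 5.11-fold difference in signal. Within replicate numbers the difference between the rhoGFP fractions was 2.14, 2.24 and 2.56. All 3 probe sets of Itga3 were called higher in both comparisons. Beside it, the alpha chains Itga1 and Itga2 and the beta3 chain Itgb3 had differences between -0.19 and 0.17 log2 units in both comparisons and were not called. Their mean signals were low, at 4.09, 5.81 and 5.42. With no detection calls, a difference at such signals can be understated.

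Lifr, the receptor chain for leukaemia inhibitory factor, a cytokine known in the retina from the response of Müller glia to photoreceptor injury, was the other positive candidate. It stood at 11.48, 11.10 and 11.18 in the rhoGFP-positive, at 9.73, 9.25 and 8.90 in the rhoGFP-negative and at 9.36, 8.27 and 8.15 in the nestinGFP-positive samples. The rhoGFP-positive arrays were the highest on each of its 3 probe sets taken by group mean, and the brightest probe set differed by 1.96 ± 0.31 (limma adjusted p = 0.0013) and 2.66 ± 0.31 log2 units (0.00012) from the rhoGFP-negative and the nestinGFP-positive cells. Il6st (gp130), the signalling chain with which Lifr pairs, stayed between 7.87 and 8.04 on all 9 arrays; its differences were 0.08 (95% interval -0.13 to 0.28) and 0.04 (-0.16 to 0.25). The arrays of Il6st overlapped in every comparison, whereas those of Lifr did so only where rhoGFP-negative cells were compared with nestinGFP-positive cells.

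The 250 bases upstream of the annotated start of Itga3 and Lifr are shown because these were the antigen genes called higher in the rod-reporter cells, and that of Cd9 because it was the only candidate whose window held the core motif of CRX, the photoreceptor homeobox factor. The sequences are from RefSeq on GRCm38.p6, written 5′ to 3′ on the strand of the gene, and for genes with several starts from the one farthest upstream. Itga3 is at chr11:95076715-95076964, minus strand, Lifr at chr15:7129322-7129571, plus strand and Cd9 at chr6:125494761-125495010, minus strand; capitals mark the motif TAATCC, searched on both strands.
Itga3: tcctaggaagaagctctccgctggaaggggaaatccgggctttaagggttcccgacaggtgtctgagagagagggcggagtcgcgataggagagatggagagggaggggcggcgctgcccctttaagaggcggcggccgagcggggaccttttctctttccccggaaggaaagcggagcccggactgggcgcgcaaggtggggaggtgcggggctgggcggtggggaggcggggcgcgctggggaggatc
Lifr: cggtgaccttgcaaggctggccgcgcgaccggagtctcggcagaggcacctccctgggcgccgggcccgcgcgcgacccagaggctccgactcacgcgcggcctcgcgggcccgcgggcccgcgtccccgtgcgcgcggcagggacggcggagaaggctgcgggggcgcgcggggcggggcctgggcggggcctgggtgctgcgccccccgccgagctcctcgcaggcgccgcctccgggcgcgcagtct
Cd9: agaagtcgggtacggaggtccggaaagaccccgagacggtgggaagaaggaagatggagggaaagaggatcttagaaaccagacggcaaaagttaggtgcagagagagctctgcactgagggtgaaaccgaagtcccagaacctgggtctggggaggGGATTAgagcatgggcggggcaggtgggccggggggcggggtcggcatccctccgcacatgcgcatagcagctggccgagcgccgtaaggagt
Of 15 candidates, 13 had a window in the table, and 1 of these held TAATCC or its reverse complement, a motif present in 6.25% of all 32851 windows. The motif TGCTGAC, a half-site of the rod factor NRL, was in 0 of the 13 and in 3.81% of all windows. A match describes letters and not binding. The windows of Itga3 and Lifr are rich in G and C, at 67.6% and 82.4%, beside 61.6% in Cd9.

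Among the 10 receptors for chemokines, growth factors and cytokines, 4 were lower and 1 (Lifr) higher in rhoGFP-positive than in rhoGFP-negative cells, and 5 lower and 1 higher against the nestinGFP-positive cells. Over all genes, 7.32% and 10.5% were called lower and 3.61% and 5.06% higher in these comparisons. Cxcr4, the receptor of the chemokine CXCL12 that guides migrating cells and axons, stood at 5.54, 5.88 and 6.92 in the rhoGFP-positive, at 8.68, 8.91 and 9.91 in the rhoGFP-negative and at 10.10, 9.999 and 10.29 in the nestinGFP-positive samples. Its highest rhoGFP-positive array lay 1.76 log2 units below its lowest rhoGFP-negative array, and within replicate numbers the difference was -3.13, -3.02 and -2.99. The group differences of -3.05 ± 0.38 and -4.01 ± 0.38 (limma adjusted p = 0.00027 and 3.01e-05) were the largest of any antigen gene. On replicate 3 of both rhoGFP fractions Cxcr4 was the highest of its group, and so was the median of the progenitor markers, at 8.83 and 11.28; the part of these markers in the difference was not tested.

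Kit, the receptor tyrosine kinase for stem cell factor, stood at 6.48, 6.12 and 6.48 in the rhoGFP-positive, at 9.06, 8.86 and 9.32 in the rhoGFP-negative and at 9.32, 8.73 and 8.75 in the nestinGFP-positive samples. The 3 rhoGFP-positive values are the lowest, and the 2 other groups overlap; the differences were -2.72 ± 0.19 and -2.57 ± 0.19 (limma adjusted p = 1.09e-05 and 8.08e-06). Its other, dimmer probe set had -0.89 and -0.79 and was not called. Ngfr, the p75 neurotrophin receptor, stood at 6.38, 6.34 and 6.87 in the rhoGFP-positive, at 8.64, 8.64 and 9.43 in the rhoGFP-negative and at 9.27, 8.93 and 8.64 in the nestinGFP-positive samples. It differed by -2.38 ± 0.25 and -2.42 ± 0.25 (limma adjusted p = 0.0001 and 5.44e-05), with 2 of 3 probe sets called. Kit and Ngfr were not called between the rhoGFP-negative and the nestinGFP-positive cells, with differences of 0.15 and -0.04 log2 units.

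Pdgfra, the alpha receptor for platelet-derived growth factor and a marker of retinal astrocytes and of oligodendrocyte precursors, stood at 5.95, 5.33 and 5.67 in the rhoGFP-positive, at 8.48, 7.56 and 7.53 in the rhoGFP-negative and at 7.78, 6.80 and 6.95 in the nestinGFP-positive samples. All 3 rhoGFP-positive values are below the others, with differences of -2.21 ± 0.32 and -1.53 ± 0.32 (limma adjusted p = 0.00066 and 0.0039). Only the brightest of its 3 probe sets was called, and with the mean of the 3 the difference from the nestinGFP-positive cells was -0.67, below the minimum. Of 4 astrocyte markers, 0 were lower and Aldoc was higher at 1.43 ± 0.18 and 2.14 ± 0.18, and their median lay between 5.21 and 5.68 on all 9 arrays.

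Erbb2 and Erbb3, receptors of the ErbB family that signal for neuregulins, and the insulin-like growth factor receptor showed smaller differences than these receptors. Erbb2 had group means of 5.99 ± 0.27 (SD, n = 3), 6.74 ± 0.27 and 7.22 ± 0.31 in that order of groups (rhoGFP-positive, then rhoGFP-negative, then nestinGFP-positive), and was called lower only against the last (-1.23 ± 0.20, limma adjusted p = 0.001; -0.74 against the rhoGFP-negative cells). Erbb3 was not called at -0.37 and -0.42. Igf1r was bright on every array, between 11.21 and 11.86, and its arrays overlapped in all comparisons, with differences of -0.02 (95% interval -0.39 to 0.35) and 0.15 (-0.22 to 0.52).

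For Egfr, the receptor of epidermal growth factor, the outcome depended on the probe set. The brightest of its 7 probe sets lay between 6.86 and 7.16 on all 9 arrays, with the same value of 7.03 on the 3 rhoGFP-negative arrays, and gave differences of 0.03 and 0.04. The probe set next in signal stood at 4.87, 5.26 and 5.50 in the rhoGFP-positive, at 7.36, 7.22 and 7.54 in the rhoGFP-negative and at 8.18, 7.56 and 7.22 in the nestinGFP-positive samples. Another, in position 5 by signal, stood at 3.94, 3.25 and 4.14 in the rhoGFP-positive, at 5.94, 6.12 and 6.83 in the rhoGFP-negative and at 6.90, 7.37 and 6.99 in the nestinGFP-positive samples. On both, all rhoGFP-positive arrays were below all others, with differences of -2.16 ± 0.25 and -2.52 ± 0.28 log2 units against the rhoGFP-negative cells (limma over all 45037 probe sets, adjusted p = 0.00036 and 0.00034) and of -2.44 and -3.31 against the nestinGFP-positive cells. The rhoGFP-positive values of the probe set in position 5 are as low as the mean signals of the dimmest antigen genes, 3.58 for Cd55 and 3.66 for Icam1, and were not shown to be above background, so the size of its differences is uncertain. The other 5 probe sets had differences between -0.09 and 0.37. Egfr is therefore not among the 12 negative candidates, which rest on the brightest probe set, although 2 of its probe sets were called; Egfr was singled out after its values were seen.

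**Figure D3:**
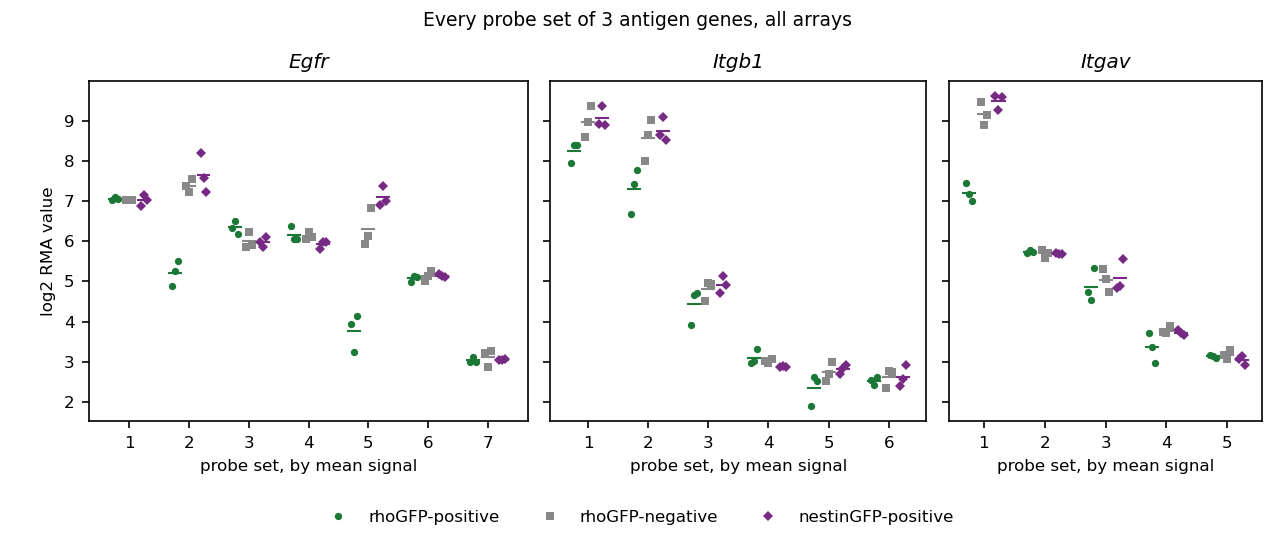
Log2 RMA values on all 9 arrays (points) with group means (bars) for every probe set of Egfr (7), Itgb1 (6) and Itgav (5), ordered by mean signal. In Egfr the probe sets in positions 2 and 5 are lower in the rhoGFP-positive cells while the groups overlap on the brightest; in Itgav only the brightest separates the groups.

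Of 10 cell adhesion molecules, 3 were lower and 0 higher in the rhoGFP-positive cells in each comparison. Over all genes, 7.32% were called lower against the rhoGFP-negative and 10.5% against the nestinGFP-positive cells. Mcam (CD146), an adhesion molecule best known from endothelium and pericytes, stood at 5.78, 6.20 and 6.26 in the rhoGFP-positive, at 8.12, 8.22 and 8.74 in the rhoGFP-negative and at 8.94, 8.71 and 8.60 in the nestinGFP-positive samples. It differed by -2.28 ± 0.19 and -2.67 ± 0.19 (limma adjusted p = 2.63e-05 and 6.59e-06), with no overlap of the rhoGFP-positive arrays with the rest. Of 11 endothelial and mural markers, Kdr (-2.44 ± 0.18) and Cldn5 (-1.55 ± 0.26) were lower against the rhoGFP-negative cells and 9 were not called. Among these 9, Pecam1 had means of 4.38 (rhoGFP-positive) and 4.28 (rhoGFP-negative), and Cdh5 of 4.563 and 4.555. The list median ran from 5.69 to 5.99 on the rhoGFP-positive, from 6.04 to 6.17 on the rhoGFP-negative and from 5.72 to 6.12 on the nestinGFP-positive arrays. The part of these markers in the Mcam difference was not tested.

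Nrcam, a neuronal adhesion molecule of the L1 family that acts in axon growth, stood at 7.24, 6.92 and 7.21 in the rhoGFP-positive, at 8.96, 8.80 and 9.44 in the rhoGFP-negative and at 9.79, 9.70 and 9.95 in the nestinGFP-positive samples. On this brightest probe set its 3 groups did not overlap at all. The differences of the rhoGFP-positive cells were -1.95 ± 0.17 and -2.69 ± 0.17 (limma adjusted p = 3.35e-05 and 3.6e-06). The rhoGFP-negative cells were below the nestinGFP-positive by -0.75, which was not called. Of 4 probe sets of Nrcam, 2 were called lower against the rhoGFP-negative and 3 against the nestinGFP-positive cells. Ptprf, the receptor phosphatase LAR, stood at 8.98, 9.11 and 9.40 in the rhoGFP-positive, at 10.89, 10.94 and 10.94 in the rhoGFP-negative and at 10.96, 10.93 and 11.06 in the nestinGFP-positive samples. The rhoGFP-negative and nestinGFP-positive arrays of Ptprf spanned 0.17 log2 units together, and the rhoGFP-positive cells differed by -1.76 ± 0.12 and -1.82 ± 0.12 (limma adjusted p = 9.31e-06 and 4.13e-06), on all 3 probe sets.

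The other 7 adhesion molecules were not called. Ncam1, the neural cell adhesion molecule, had the highest mean signal of all antigen genes, with group means of 12.34, 12.48 and 12.73 in the same order of groups and differences of -0.14 and -0.39. Bsg (basigin), the chaperone of lactate transporters and receptor of the rod-derived cone viability factor, lay between 11.48 and 11.82 on all arrays, with differences of -0.12 (95% interval -0.36 to 0.12) and 0.01 (-0.23 to 0.25). L1cam, close kin of Nrcam, ranged from 8.90 to 10.10 among the rhoGFP-negative arrays alone, and its difference of 0.01 has an interval of -0.69 to 0.71. Alcam, Epcam, Icam1 and Vcam1 had lower mean signals, 5.12, 6.503, 3.66 and 5.62, and differences between -0.31 and 0.17; at such low signals, with no detection calls, a difference can be understated.

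Of 4 measured small GPI-anchored antigens, Cd24a and Cd59a were lower in both comparisons and Thy1 and Ly6e were not called. Over all genes, 7.32% and 10.5% were called lower in these comparisons. Cd24a, the heat-stable antigen of immature neurons, stood at 10.88, 10.44 and 10.82 in the rhoGFP-positive, at 12.86, 12.91 and 12.64 in the rhoGFP-negative and at 12.80, 12.93 and 12.51 in the nestinGFP-positive samples. It had a mean signal at the 98.96 percentile of all genes and remained bright in the rhoGFP-positive cells while lying 4.25-fold and 4.09-fold below the other groups (-2.09 ± 0.16 and -2.03 ± 0.16; limma adjusted p = 1.55e-05 and 1.02e-05). All 3 of its probe sets were called. Between the rhoGFP-negative and nestinGFP-positive cells it differed by 0.06.

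Cd59a, which blocks the complement pore, stood at 7.11, 6.93 and 6.85 in the rhoGFP-positive, at 7.91, 8.05 and 8.07 in the rhoGFP-negative and at 8.02, 8.22 and 8.20 in the nestinGFP-positive samples. The group gap is small but exceeds the spread, at -1.05 ± 0.11 and -1.19 ± 0.11 (limma adjusted p = 0.0001 and 3.01e-05), and both probe sets were called. It lies just inside the minimum of 1 log2 unit, and without replicate 3 of the rhoGFP-positive group its first difference was -0.9954 and the call was lost. Thy1, the classical surface marker of ganglion cells, stood at 5.34, 5.45 and 5.43 in the rhoGFP-positive, at 5.25, 5.43 and 5.17 in the rhoGFP-negative and at 5.17, 5.84 and 6.02 in the nestinGFP-positive samples. These low values overlap in all comparisons, with differences of 0.12 and -0.27. Ly6e overlapped too, at 0.09 and -0.31.

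Of 4 measured regulators of complement and phagocytosis, 1 was lower in both comparisons, beside 7.32% and 10.5% of all genes. This was Cd200, a ligand that quiets microglia. It stood at 4.94, 5.62 and 5.39 in the rhoGFP-positive, at 6.64, 8.27 and 7.16 in the rhoGFP-negative and at 7.69, 8.40 and 7.69 in the nestinGFP-positive samples. The rhoGFP-negative values of Cd200 are widely spread, yet all lie above the rhoGFP-positive ones, with differences of -2.04 ± 0.38 and -2.61 ± 0.38 (limma adjusted p = 0.0032 and 0.00045). Cd47, the signal against phagocytosis read by SIRPA, stood at 9.51, 9.12 and 9.11 in the rhoGFP-positive, at 10.02, 10.01 and 10.23 in the rhoGFP-negative and at 10.41, 10.20 and 9.61 in the nestinGFP-positive samples. Its rhoGFP-positive arrays were below all others, but the differences of -0.84 ± 0.20 and -0.83 ± 0.20 (limma adjusted p = 0.012 and 0.0093) fell short of the minimum. They passed it without replicate 1 of every group (-1.002) and without nestinGFP-positive replicate 3 (-1.06) respectively; 1 of its 5 probe sets reached -1.02 against the nestinGFP-positive cells. Cd46 and Cd55, inhibitors of complement convertases, had low mean signals of 5.56 and 3.58 and differences between -0.18 and 0.35, none of them called.

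Of 4 measured tetraspanins, 1 was lower in the rhoGFP-positive cells in both comparisons, beside 7.32% and 10.5% of all genes. Cd9, a tetraspanin of glia and progenitors that associates with integrins, stood at 8.03, 7.48 and 7.96 in the rhoGFP-positive, at 10.24, 9.72 and 10.15 in the rhoGFP-negative and at 10, 9.40 and 8.44 in the nestinGFP-positive samples. The rhoGFP-positive arrays were the lowest, with differences of -2.21 ± 0.34 and -1.46 ± 0.34 (limma adjusted p = 0.001 and 0.0077). The nestinGFP-positive arrays of Cd9 ranged over 1.56 log2 units, and the lowest of them lay 0.41 above the highest rhoGFP-positive array. Cd151, an integrin partner, was at -0.97 ± 0.26 and -0.54 and not called, while 2 of its 6 probe sets passed the minimum against the rhoGFP-negative cells, at -1.17 and -1.03. On its brightest probe set the first difference passed the minimum under some alternatives, among them leaving out rhoGFP-positive replicate 1 (-1.22) and replicate 1 of every group (-1.02). Cd82 pointed the other way at 0.56 and 0.16, below the minimum, and Cd81 stayed between 11.19 and 11.81 on all arrays.

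Among the 9 integrin subunits, Itga3 was higher and Itgav lower in the rhoGFP-positive cells in both comparisons, and Itga6 was lower against the nestinGFP-positive cells only. Over all genes, 3.61% and 5.06% were called higher and 7.32% and 10.5% lower in these comparisons. Itgav, the alpha chain of vitronectin receptors, stood at 7.44, 7.17 and 6.995 in the rhoGFP-positive, at 9.47, 8.88 and 9.12 in the rhoGFP-negative and at 9.60, 9.27 and 9.58 in the nestinGFP-positive samples. Its differences were -1.96 ± 0.17 and -2.28 ± 0.17 (limma adjusted p = 3.72e-05 and 9.75e-06), but the 4 dimmer of its 5 probe sets did not separate the groups, so that with the mean of all 5 it was at -0.51 and -0.55 and not called. Itgb1, the beta chain that pairs with alpha3 and alpha6, was not called on its brightest probe set (-0.71 and -0.81) and was called on the next, at -1.27 ± 0.32 and -1.45 ± 0.32 (limma over all probe sets, adjusted p = 0.026 and 0.0088). Itga4, at -0.94 ± 0.10 and -0.58 ± 0.10 (limma adjusted p = 9.88e-05 and 0.0012), and Itga5, at -0.37 and -0.56, were below the minimum.

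Itga6, the other laminin-binding alpha chain and a common stem cell antigen, was the only antigen gene called higher in the nestinGFP-positive cells than in both other groups. It stood at 7.71, 7.62 and 7.96 in the rhoGFP-positive, at 7.51, 7.24 and 8.27 in the rhoGFP-negative and at 8.98, 8.80 and 9.41 in the nestinGFP-positive samples. The nestinGFP-positive values were the highest; the rhoGFP-positive cells differed from them by -1.30 ± 0.26 (limma adjusted p = 0.0028) and the rhoGFP-negative by -1.396 ± 0.26 (0.03), while the rhoGFP fractions overlapped and differed by 0.09. The call rests on 1 of 2 probe sets, and against the rhoGFP-negative cells it was lost under 11 of 22 alternatives. In 10 of these the adjusted p ran from 0.0516, without replicate 3 of the rhoGFP-positive group, to 0.126, without replicate 1 of every group; the other was a threshold of 0.01.

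The leukocyte antigens were mostly not called, and all but Cd276, at a mean signal of 7.75, lay below the median signal of all genes, 7.17. Of 6 measured, limma called 0 between the rhoGFP fractions (2 at an unadjusted p below 0.05) and 1 against the nestinGFP-positive cells. Over all genes, 10.9% and 15.6% were called either way. Between the rhoGFP fractions 6138 of 18193 genes had an unadjusted p below 0.05. The called antigen was Cd83, a marker of dendritic cells, at -1.24 ± 0.23 (limma adjusted p = 0.0021), with values of 4.56 to 4.81 against 5.42 to 6.38. Cd68, a lysosomal glycoprotein of phagocytes, stood at 6.14 on replicate 3 of the rhoGFP-positive group against 5.32 on the others, and reached 7.19 on replicate 3 of the nestinGFP-positive group. The median of 11 microglia markers was 6.93 on that rhoGFP-positive array, beside 5.84 and 6.04 on the others, 5.37 to 5.93 in the rhoGFP-negative and 4.61 to 5.62 in the nestinGFP-positive group. Cd68 was not called at -0.18 and -0.97; its second difference passed the minimum without that array (-1.245, limma adjusted p = 0.016), without nestinGFP-positive replicate 1 (-1.17) and with cyclic loess (-1.06). The part of microglia in these values was not tested. Cd40, Cd74 and Cd86, receptors and chaperones of antigen presentation, lay between -0.03 and 0.23.

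Cd276 (B7-H3), an immune checkpoint ligand made by many tissues, differed the other way from most antigens. Its rhoGFP-positive arrays, at 8.07 to 8.34, lay above the rhoGFP-negative at 7.20 to 7.57 and the nestinGFP-positive at 7.38 to 7.76, with differences of 0.84 ± 0.14 and 0.63 ± 0.14 (limma adjusted p = 0.002 and 0.0066) that were below the minimum. Cd164, a sialomucin of endosomes and the surface, was likewise at 0.71 ± 0.17 and 0.65 ± 0.17 (limma adjusted p = 0.014 and 0.016). With no minimum difference these were the 2 antigens that joined Itga3 and Lifr as higher against both groups. The vascular and stem cell antigens Cd34 and Cd93 had mean signals of 4.15 and 5.07 and differences of -0.04 to 0.32. The transport proteins Tfrc (transferrin receptor) and Slc3a2 (heavy chain of amino acid exchangers, CD98) were bright, at means of 10.42 and 10.27, and were not called, at 0.39 and 0.46 for Tfrc and 0.47 and 0.06 for Slc3a2.

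By mean signal over the 9 arrays the antigens ran from the 99.4 percentile of all genes (Ncam1) to the 7.11 percentile (Cd55). The brightest were Ncam1, Cd24a, Bsg, Igf1r and Cd81, of which Cd24a alone was a candidate. Bsg stood at 11.48, 11.55 and 11.71 in the rhoGFP-positive, at 11.56, 11.74 and 11.82 in the rhoGFP-negative and at 11.58, 11.53 and 11.60 in the nestinGFP-positive samples. Ncam1 stood at 12.24, 12.43 and 12.34, at 12.24, 12.52 and 12.68, and at 12.63, 12.62 and 12.94 in the same order, and its difference from the nestinGFP-positive cells missed the threshold (limma adjusted p = 0.054). The arrays of Bsg overlapped in every comparison, while those of Ncam1 overlapped in all but that one. Probe sets differ in how strongly they bind, so this order is one of signal on the array and not of transcript number. Over all probe sets of the antigen genes, 6 of 139 were called higher and 24 lower between the rhoGFP fractions (3.07% and 4.96% of all probe sets), and 6 and 27 against the nestinGFP-positive cells (4.45% and 7.78%). No gene had probe sets called in both directions in these comparisons.

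Of 33 measured ligands and partners of the antigens, 4 were higher and 6 lower between the rhoGFP fractions, and 4 and 7 against the nestinGFP-positive cells. The shares of all genes were 3.61% and 7.32%, and 5.06% and 10.5%. Nxnl1, the rod-derived cone viability factor that binds basigin, was higher by 2.13 ± 0.20 and 2.84 ± 0.20 (limma adjusted p = 4.96e-05 and 6.27e-06), while basigin was not called. Slc7a8, a light chain that pairs with Slc3a2, was higher by 1.90 ± 0.13 and 1.84 ± 0.13, and Sirpa, the receptor of Cd47, by 1.61 ± 0.09 and 1.68 ± 0.09. Cxcl12, the ligand of Cxcr4, was lower at -1.37 ± 0.44 and -2.08 ± 0.44 (limma adjusted p = 0.048 and 0.0045). The basigin-dependent lactate transporters Slc16a3 (-1.77 ± 0.24 and -1.59 ± 0.24) and Slc16a1 (-1.45 ± 0.26 and -2.32 ± 0.26) were lower too.

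Of 13 other integrin subunits, 1 was called in each of these comparisons: Itgb8, a beta chain that pairs with Itgav, at -2.49 ± 0.34 and -2.21 ± 0.34 (limma adjusted p = 0.00051 and 0.00067). Over all genes, 10.9% and 15.6% were called either way in them. Of 18 other tetraspanins, 2 were higher and 4 lower between the rhoGFP fractions and 2 and 5 against the nestinGFP-positive cells. The shares of all genes were 3.61% and 7.32%, and 5.06% and 10.5%. Tspan6 (-1.73 ± 0.12 and -2.27 ± 0.12), Tspan14 (-1.67 ± 0.14 and -1.82 ± 0.14) and Tspan15 (-1.32 ± 0.14 and -1.47 ± 0.14) were lower, as was Tspan18 (-1.03 ± 0.21 and -1.66 ± 0.21), and Tspan17 was higher at 1.13 ± 0.10 and 1.496 ± 0.098. Among antigens used elsewhere for such sorts, Nt5e (CD73) had group means of 11.37, 9.65 and 7.32 and Prom1 (CD133) of 13.47, 11.84 and 11.21 in the same order of groups. Their differences from the rhoGFP-negative cells, 1.72 ± 0.39 and 1.63 ± 0.13 (limma adjusted p = 0.0089 and 2.4e-05), stand beside 2.31 for Itga3 and 1.96 for Lifr. Against the nestinGFP-positive cells the order differed, with 4.05 ± 0.39 for Nt5e and 2.26 ± 0.13 for Prom1 beside 2.35 for Itga3 and 2.66 for Lifr, and no difference between genes was tested. Cd44 was lowest in the rhoGFP-positive cells, at 3.87 against 5.51 and 9.57, and Fut4 was not called.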

How the data were processed

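The deposited values are log2 expression values made with RMA, as the submitters' processing notes name it. No RMA version is given in the sources used here, and the log2 scale was read from the values as deposited. RMA corrects background, quantile-normalizes between arrays and summarises probe sets, which compresses low signals, and the table holds no detection calls. Per the labels' protocols, 200 ng of total RNA per sample went into biotin labelling. Precision is limited by the number of arrays: over all genes, the standard error of a difference had a median of 0.141.

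Probe sets with 1 gene symbol were used (34945 of 45037; 34741 symbols were looked up by Entrez ID), each gene through its probe set of highest mean signal, and 1 probe set shared by Cd55 with another gene was left out. Differences were tested in R 4.3.3 with limma 3.58.1 (lmFit, eBayes, two-sided), in 1 fit of all 9 arrays with 3 group means and Benjamini-Hochberg adjustment over 18193 genes, or over all probe sets where stated; each ± after a difference is a standard error. The fit was tested on simulated data. Figures were drawn with matplotlib 3.10.9.

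The members, lists and thresholds were chosen with earlier results of these data known. All members were to be named, with values on every array for candidates, for Thy1 and Cd47, and for the brightest 3; of the wider lists, up to the 3 largest called differences, beside reference genes. Egfr and members named beside alternatives were added after their values were seen. Deviations of same-numbered arrays from their group means correlated at 0.624, 0.454 and 0.451 between the rhoGFP fractions, at 0.543, 0.155 and 0.235 for rhoGFP-negative with nestinGFP-positive arrays, and at 0.522, -0.0081 and 0.252 for rhoGFP-positive with nestinGFP-positive arrays. Same-numbered arrays thus correlated positively throughout in the former 2 comparisons, which was read from the data and not the labels. Differently numbered arrays ran from -0.488 to 0.0736 between the rhoGFP fractions. They ran from -0.394 to 0.221 for rhoGFP-negative and from -0.453 to 0.387 for rhoGFP-positive with nestinGFP-positive arrays. In these last 2 comparisons some differently numbered arrays thus correlated more than some same-numbered ones. The fit behind the reported differences and p-values held group means only and did not pair arrays. The replicate number entered as a block only in an alternative fit. The rhoGFP-negative and nestinGFP-positive cells came from different lines and ages, so a shared number there does not mark the same mice. Alternatives were other normalizations, probe set rules, filters, thresholds and fits, and leaving out arrays.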

Additional observations from a re-analysis of the deposited data

How the results depend on the processing

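Counts of antigen genes called were recomputed under 22 alternatives, 21 of them planned; leaving out replicate 1 of every group was chosen after seeing the 18S controls. With the replicate number as a block, all counts were as reported (2 higher and 12 lower between the rhoGFP fractions, 2 and 15 against the nestinGFP-positive cells, 0 and 1 in the third comparison; 2 positive and 12 negative candidates of the rhoGFP-positive group), and the block changed 0 of 156 member calls. Of 15 candidates, 11 were called under all 22 alternatives; Itgav and Pdgfra were lost with the mean of all probe sets, Cd59a without rhoGFP-positive replicate 3, and Itga6 under 11. With no minimum difference 5 antigen genes were higher in each comparison of the rhoGFP-positive cells, and 4 were positive candidates. In that setting 17 were lower than in the rhoGFP-negative and 20 than in the nestinGFP-positive cells, and 16 were negative candidates. The count of 1 gene lower in the rhoGFP-negative than in the nestinGFP-positive cells, and of 1 positive candidate of the latter, Itga6, fell to 0 with the mean of all probe sets, every probe set tested, only the 6 arrays compared, an adjusted p below 0.01 and without replicate 1 of every group. Leaving out 1 array at a time gave 0 to 1 for both of these, 0 to 1 for genes higher in that comparison and for negative candidates of the nestinGFP-positive group (Lifr, without nestinGFP-positive replicate 1), 2 for genes higher in the rhoGFP-positive cells, and 11 to 13 and 15 to 16 for genes lower in them. Leaving out dim genes removed 17 of the 52 antigen genes. Low signals without detection calls limit what can be said of those genes.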

Other observations

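Adhesion molecules of the immunoglobulin superfamily outside the antigen list, and their receptor phosphatases, went both ways in the rhoGFP-positive cells. Of 19 measured, 2 were higher and 6 lower than in the rhoGFP-negative cells, and 3 and 6 against the nestinGFP-positive cells. The shares of all genes were 3.61% and 7.32%, and 5.06% and 10.5%. Jam3, a junctional adhesion molecule, was lower at -2.05 ± 0.20 and -2.36 ± 0.20 (limma adjusted p = 6.52e-05 and 1.75e-05). Lsamp, a GPI-anchored molecule of neurites, was lower at -1.98 ± 0.26 and -2.55 ± 0.26, and Cadm4, a synaptic adhesion molecule, at -1.915 ± 0.15 and -2.135 ± 0.15. Ptprd, close kin of Ptprf, was lower at -1.60 ± 0.19 and -2.26 ± 0.19. Among those higher were Nfasc, kin of Nrcam and L1cam, at 1.68 ± 0.27 and 1.40 ± 0.27, and Ntm, at 1.52 ± 0.22 and 1.84 ± 0.22. In rhoGFP-negative compared with nestinGFP-positive cells 1 of the 19, Jam2, was higher, at 1.097 ± 0.20 (limma adjusted p = 0.028).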
